A study of Saccharomyces cerevisiae with 36 samples.

Results

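In total RNA of WT budding yeast, 43 of 6697 genes of the count table (0.642%) met a rule on their levels at 30, 40 and 42 °C. After 10 min at 40 °C they stood at 0.67 to 1.5 times their 30 °C level. After 10 min at 42 °C they stood at least 2-fold above it. These transcripts were chosen by their own values in the WT total libraries. A gene was kept where its mean of 2 libraries reached a CPM (the count scaled to a common library total) of 20 at 42 °C, where its ratio of 42 to 30 °C was 2 or more, and where its ratio of 40 to 30 °C lay between 0.67 and 1.5, each ratio taken after adding 1 CPM. Of 4555 genes with 20 CPM or more, 597 met the 42 °C ratio, and 545 of these were left out because they were already raised at 40 °C, while 9 were left out because they were lower at 40 °C. A rise at 42 °C with a 40 °C ratio inside the window was therefore held by 43 of the 597 genes. The window also admits partial rises at 40 °C, of up to 1.5 times. The WT total values below are a description of that choice and carry no test. All 43 genes encode proteins, and the low-count filter of both fits kept all of them.

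The study compared 2 strains of the W303 Ade+ background. The first, WT, carries Ded1-mCherry, and the second, IDRm, carries Ded1_IDRm-mCherry, so that both have a tagged form of the RNA helicase Ded1. Each culture, grown at 30 °C, was divided into portions that spent 10 min at 30, 40 or 42 °C. From each portion total RNA, an insoluble pellet and the soluble remainder were sequenced, with 2 libraries for each of the 18 groups. The labels do not say what IDRm changes in Ded1. How pellet and soluble parts were separated is not given in the sources used here.

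Heat shock in yeast drives transcription through the factors Hsf1, which acts on chaperone genes, and Msn2 and Msn4, which act on general stress genes, while genes for ribosomal proteins and ribosome assembly are turned down. Ded1 unwinds the leaders of mRNAs during scanning by the ribosome, and it collects in condensates when cells are heated. RNA that is held in condensates or other large assemblies sediments into a pellet, whereas RNA on free ribosomes and smaller particles stays soluble.

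Libraries held 4934241 to 13730247 counts. Over genes, the correlation of 2 replicates was 0.988 to 0.996 in total RNA, 0.986 to 0.998 in pellets and 0.964 to 0.994 in soluble RNA. The lowest value belonged to WT soluble RNA at 42 °C, so results that use it are given without each of its libraries where that changes them. DED1, the gene that differs between the strains, was read at 1200 to 1934 CPM in WT total RNA and at 839.6 to 1279 CPM in IDRm total RNA. Levels are CPM of library totals. Fold changes are log2 values ± the standard error of an edgeR quasi-likelihood fit, and "called" means a Benjamini-Hochberg adjusted p under 0.05 over all genes of the fit. Every value is a share of its own library, and in these bulk samples fewer cells with a transcript and less of it per cell cannot be told apart.

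The 43 transcripts did not share 1 function, and 4 of them stood apart by size. GAL3 (YDR009W), the galactose sensor that releases the activator Gal4, had the largest ratio of 42 to 30 °C, 12.9. Next came EFM3 (YJR129C), which methylates a translation elongation factor, with 7.65, and PAC1 (YOR269W), the yeast counterpart of the dynein regulator LIS1, with 6.11. POP6, a subunit of RNase P and RNase MRP, followed with 3.98, and the other 39 lay between 2.005 and 3.74.

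The windows before 4 genes are printed to show the letters behind the motif counts, with no motif found in all 4. They are the first 4 genes, by WT ratio, in which a searched motif occurred. Each was read from the RefSeq R64 genome on the strand of the gene, 400 to 101 bases before the start codon. Matches to a searched motif on either strand are in capitals. For EFM3 and BUB3, where a neighbouring gene reaches into the window, 30 bases around 1 match are shown.
GAL3, chrIV:463034-463333, plus strand: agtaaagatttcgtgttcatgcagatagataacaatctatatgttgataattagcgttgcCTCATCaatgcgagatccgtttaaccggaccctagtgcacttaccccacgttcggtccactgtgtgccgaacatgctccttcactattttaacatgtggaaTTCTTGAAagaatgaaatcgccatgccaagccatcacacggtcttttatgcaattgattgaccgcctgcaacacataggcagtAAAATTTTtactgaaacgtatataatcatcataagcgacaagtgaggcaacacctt
EFM3, chrX:665163-665192, minus strand: aaactctgtagAAAATTTTaatgctgattg
PAC1, chrXV:825985-826284, plus strand: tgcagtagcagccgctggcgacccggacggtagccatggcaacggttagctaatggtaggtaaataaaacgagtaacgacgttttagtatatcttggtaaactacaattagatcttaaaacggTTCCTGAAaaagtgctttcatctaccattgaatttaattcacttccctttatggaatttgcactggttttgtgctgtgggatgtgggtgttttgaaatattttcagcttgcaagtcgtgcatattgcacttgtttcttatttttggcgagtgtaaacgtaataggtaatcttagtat
BUB3, chrXV:379597-379626, plus strand: tcgaggcagacaCCCCTttgcataatatat

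The window of GAL3 held a heat shock element of 2 units (TTCNNGAA, short units of the kind bound by Hsf1) and that of PAC1 another. Over both strands, such 2-unit elements (GAANNTTC or TTCNNGAA) were found in 25.6% of the 43 windows and in 24% of the 4518 genes of R64 with 20 CPM or more in WT at 42 °C. An element of 3 such alternating units was found in 0 of the 43 windows and in 1.22% of the 4518. The stress response element AGGGG, bound by Msn2 and Msn4, was found in 30.2% against 24.4%. The motifs named PAC (GATGAG) and RRPE (AAAATTTT), common before ribosome assembly genes, were counted singly. PAC was found in 30.2% against 18.5% and RRPE in 20.9% against 10.3%. Of the 43, only GAL3, LOC1 and PEA2 held both. The SCB element CGCGAAA was found in 14% against 4.63%. MCB (ACGCGT) was found in 0 of 43 against 3.98%, the Gcn4 site TGACTC in 9.3% against 9.07%, and the Yap site TTACTAA in 2.33% against 7.28%. The search allowed overlap between motifs, and a match is a description of letters.

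In WT total RNA, GAL3 was read at 8.92 and 10.7 CPM at 30 °C, 13.0 and 10.8 CPM at 40 °C, and 129 and 146 CPM at 42 °C. EFM3 was read at 9.84 and 9.58, then 10.8 and 10.9, then 78.2 and 83.7 CPM. PAC1 went through 34.4 and 43.4, then 41.4 and 39.3, then 214 and 272 CPM. In these 3 genes the libraries of 30 and 40 °C lay within a narrow band and both libraries of 42 °C lay far above it. Both libraries of 42 °C were above both of 30 °C for all 43 genes, which the rule made likely. With replicate 1 alone, 74 genes met the rule, 31 of them among the 43, and with replicate 2 alone 43 genes met it, 27 of them among the 43. Just inside the limit for the 42 °C ratio stood MSD1 (2.005) and SAS10 (2.01), and just outside it ENB1 (1.99) and LSM4 (just under 2). Inside the 40 °C limits stood SEF1 (1.49), BET4 (1.48), GIT1 (0.727) and EXO84 (0.734), and outside them NRM1 (1.51), TPM1 (1.53), FRE1 (0.652) and CGR1 (0.651). By level, COA4 (20.3 CPM) and POP6 (27.8 CPM) were the lowest inside, and RMD6 (18.9 CPM) and YOR338W (18.1 CPM) the highest outside.

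**Figure D1:**
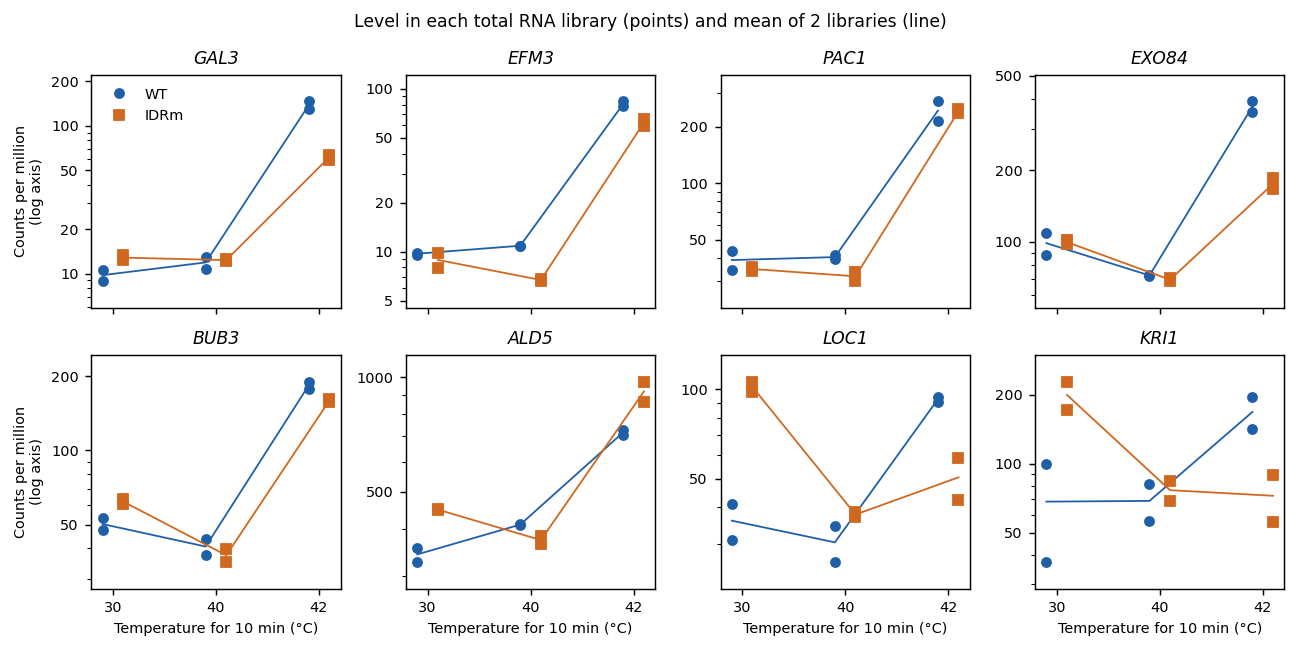
CPM in each total RNA library (log axis) of 8 members at 30, 40 and 42 °C, with WT as blue circles, IDRm as orange squares and lines through the mean of 2 libraries. GAL3, EFM3, PAC1, EXO84, BUB3 and ALD5 were higher at 42 °C in both strains, while LOC1 and KRI1 were lower at 42 than at 30 °C in IDRm.

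The IDRm total libraries took no part in the choice, and they give a test of the same heat steps. From 30 to 42 °C, 34 of the 43 transcripts rose in IDRm, 5 fell and 4 were not called, where 33.7% of all 6090 tested genes were called higher and 31% lower. Both libraries of 42 °C lay above both of 30 °C for 35 of the 43, and for 36.2% of the 4555 genes. The median of the 43 was 1.22, against 0.03 over all tested genes. From 40 to 42 °C 33 rose (background 21.2%) and 0 fell (edgeR 0 lower at an unadjusted p under 0.05, DESeq2 0). From 30 to 40 °C 19 rose, 10 fell and 14 were not called, with 37.8% of all genes called higher and 32.6% lower. These shares at 40 °C lay near those of all genes in sum, and 30 of the 43 were inside the 40 °C window of the rule in IDRm. The 19 that rose at 40 °C were 11 without replicate 2 of IDRm at 30 °C, 13 without replicate 1 of 30 °C or replicate 2 of 40 °C, and 14 with DESeq2. Whether the strains differ in total RNA was not tested, because the WT values chose the genes. Applied to IDRm total RNA, the same rule gave 41 genes, 18 of them shared, which is 41.9% of the 43 and 43.9% of the 41.

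The 4 transcripts with the largest ratios in WT also had the largest rises of the 43 in IDRm, and ZIP2 came next within the error of GAL3. GAL3 was read at 12.3 and 13.4 CPM at 30 °C, 12.6 and 12.1 CPM at 40 °C, and 59.2 and 63.8 CPM at 42 °C, a change of 2.33 ± 0.14 (adjusted p = 8.95e-10). Its 42 °C libraries were above all cooler ones but stayed below both WT libraries of 42 °C, a gap that the choice by WT values favoured. EFM3 rose by 2.87 ± 0.15, PAC1 by 2.86 ± 0.14 and POP6 by 2.38 ± 0.19, and none of the 4 was called at 40 °C. ZIP2, which helps pair meiotic chromosomes, rose by 2.20 ± 0.20 from 9.44 and 12.9 CPM to 53.8 and 43.7 CPM.

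The 7 members of secretion and cell polarity all rose in IDRm from 30 to 42 °C, by 0.89 to 1.68. For comparison, 34 of all 43 members rose, and 33.7% of all 6090 tested genes were called higher. Roles were set after the values were seen, so counts by role carry no test. EXO84 (YBR102C), a subunit of the exocyst that tethers vesicles, was read in WT at 88.4 and 109 CPM at 30 °C, 71.9 and 72.6 CPM at 40 °C, and 353 and 390 CPM at 42 °C. In IDRm it was read at 98.0 and 102, then 70.2 and 68.4, then 166 and 185 CPM, with a fall of 0.34 ± 0.12 at 40 °C and a rise of 0.89 ± 0.11 at 42 °C. The 42 °C libraries were the highest in both strains, and those of IDRm lay below both of WT, a gap that the choice favoured. The call at 40 °C was lost without IDRm total replicate 1 (-0.36) or 2 (-0.33) of 40 °C. PEA2, a protein of the polarity complex, rose by 1.68 ± 0.14, AST2, related to a protein of plasma membrane targeting, by 1.61 ± 0.14, and ALG14, of the enzyme for early steps of N-glycosylation, by 1.52 ± 0.12. YSY6 and ATG27, membrane proteins of the secretory and autophagy routes, each rose by 1.30. BET4, a subunit of the Rab-prenylating enzyme, rose by 1.05 ± 0.12.

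Of the 10 members that act on chromatin, transcription or chromosomes, all 10 rose in IDRm, by 0.66 to 2.20 (background 33.7%). SIF2 (YBR103W), a subunit of the Set3 histone deacetylase complex, was read in WT at 93.3 and 101, then 79.1 and 69.3, then 346 and 376 CPM. In IDRm its levels were 118 and 120, then 88.5 and 95.1, then 176 and 182 CPM, a rise of 0.66 ± 0.11. SIF2 and EXO84 stood well below their WT levels at 42 °C in IDRm. BUB3, of the spindle checkpoint, differed less, with 178 and 190 CPM in WT and 162 and 157 CPM in IDRm. ALD5 and PEA2 stood above their WT levels at 42 °C. The choice took genes high in WT at 42 °C, so values lower in IDRm were favoured. These gaps can therefore not be read as a strain difference. BUB3 fell by 0.54 ± 0.12 at 40 °C in IDRm and rose by 1.43 ± 0.11 at 42 °C. Among regulators of transcription, ERT1, of gluconeogenesis genes, rose by 1.81 ± 0.16, SEF1, a zinc cluster protein, by 1.70 ± 0.14 and RGT1, the repressor of hexose transporter genes, by 1.60 ± 0.10. ADA2, of the SAGA histone acetyltransferase, rose by 1.26 ± 0.11, CAF120, of the Ccr4-Not complex, by 1.22 ± 0.16, ROX3, of Mediator, by 0.93 ± 0.10 and TOS4, a chromatin-associated protein made in G1 and S phase, by 0.84 ± 0.10.

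Of the 6 members that modify tRNAs or proteins, 5 rose in IDRm (background 33.7%). KTI12, which works with the Elongator complex on wobble uridines, rose by 1.65 ± 0.15, RKM5, a ribosomal protein methyltransferase, by 1.42 ± 0.15, and UBC12, the conjugating enzyme for the ubiquitin-like Rub1, by 1.28 ± 0.15. MSD1, the mitochondrial aspartyl-tRNA synthetase, rose by 0.83 ± 0.12 and MOD5, a tRNA isopentenyltransferase, by 0.77 ± 0.12. OTU2, a deubiquitylating enzyme linked to ribosomes, was not called at 0.18 ± 0.16. Of the 9 members of transport and metabolism, 8 rose, against the same background of 33.7%. Among them JLP1, a sulfonate dioxygenase, rose by 1.56 ± 0.15, PBI1 by 1.39 ± 0.15 and DAL3, ureidoglycolate lyase, by 1.36 ± 0.15. ALD5, a mitochondrial aldehyde dehydrogenase, rose by 1.10 ± 0.11 and FTR1, the iron permease, by 1.01 ± 0.13. GIT1, a glycerophosphoinositol permease, fell by 0.87 ± 0.12 at 40 °C and rose by 0.73 ± 0.12 at 42 °C, and COA4, of cytochrome oxidase assembly, rose by 0.73 ± 0.18. NRK1, nicotinamide riboside kinase, rose by 0.35 ± 0.13, a call lost without any 1 of the 4 IDRm libraries of 30 and 42 °C (0.29 to 0.36). VMA22, an assembly factor of the vacuolar proton pump, was not called at -0.01 ± 0.13.

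**Figure D2:**
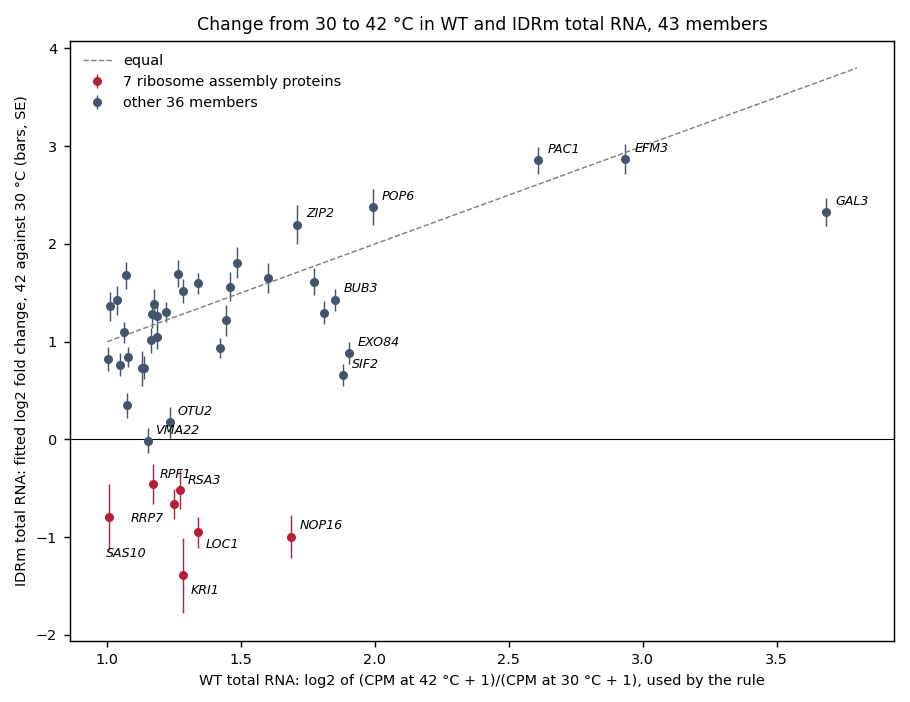
Each point is 1 of the 43 members. The horizontal axis is log2 of the WT ratio used to choose them, the vertical axis the fitted log2 fold change from 30 to 42 °C in IDRm total RNA with its SE, and the dashed line marks equal values. The 7 ribosome assembly proteins lie between -1.39 and -0.45, below the other 36, which lie between -0.01 and 2.87.

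The 7 members that assemble ribosomes behaved differently from the rest in IDRm, where none of the 7 rose (edgeR 0 higher at an unadjusted p under 0.05, DESeq2 0) and 34 of the other 36 did. Of all 6090 tested genes, 33.7% were called higher from 30 to 42 °C. The 7 were grouped after their values were seen, by known function, and the grouping carries no test. NOP16, LOC1, KRI1, RSA3, RPF1, RRP7 and SAS10 are nucleolar factors of ribosome assembly. NOP16, LOC1, RSA3 and RPF1 act on the large subunit, and KRI1, RRP7 and SAS10 on the small one. LOC1 (YFR001W) was read in WT total RNA at 31.1 and 41.0 CPM at 30 °C, 26.2 and 34.7 CPM at 40 °C, and 94.4 and 91.0 CPM at 42 °C. In IDRm it was read at 106 and 98.0, then 38.4 and 37.2, then 42.5 and 58.5 CPM, a fall of 1.248 ± 0.16 at 40 °C and of 0.95 ± 0.16 at 42 °C. In total RNA the IDRm libraries of 30 °C were thus at the level that WT reached at 42 °C, and both IDRm libraries of 42 °C lay below both of 30 °C. The fractions of 30 °C did not show this gap between the strains. Soluble LOC1 stood at 144 and 132 CPM in WT and at 173 and 84.8 CPM in IDRm. Its pellet level was 20.2 and 21.1 CPM in WT and 21.3 and 20.9 CPM in IDRm.

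NOP16 was read at 17.2 and 29.9 CPM in WT at 30 °C and at 75.8 and 80.2 CPM at 42 °C. In IDRm it stood at 76.8 and 56.9 CPM at 30 °C and at 27.7 and 36.5 CPM at 42 °C, a fall of 0.99 ± 0.22. KRI1 fell by 1.39 ± 0.39 in IDRm at 42 °C, RRP7 by 0.66 ± 0.15 and RSA3 by 0.52 ± 0.20, while SAS10 (-0.79 ± 0.34) and RPF1 (-0.45 ± 0.21) were not called. The call of KRI1 was lost without replicate 1 of IDRm at 30 °C (-1.17) or at 42 °C (-1.09). That of RSA3 was lost without IDRm total replicate 1 of 30 °C (-0.40) and without either library of 42 °C (-0.54 and -0.51). At 40 °C all 7 fell in IDRm, by 0.59 to 1.29, where 32.6% of all tested genes were called lower. KRI1 lost its call at 40 °C without replicate 1 of 30 °C (-0.99) and without either library of 40 °C (-1.35 and -1.07).

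The WT values of these 7 rest on the 30 °C total libraries, and those libraries disagreed with each other and with their own fractions. SAS10 was read at 60.6 CPM in replicate 1 and 171 CPM in replicate 2, and KRI1 at 37.5 and 99.3 CPM. In the same harvest as replicate 1, SAS10 stood at 382 CPM in soluble RNA and 94.4 CPM in the pellet, and KRI1 at 265 and 80.8 CPM. For 5 of the 7 genes the total level of that harvest lay below both of its fractions, and for 2 of 7 in replicate 2, where 37.9% and 25.2% of the 4555 genes did so. The median of log2 total over the geometric mean of the fractions was -1.45 for the 7 genes in replicate 1 and -0.37 in replicate 2, and between 0.26 and 1.24 in the other 10 harvests. Without replicate 1 of WT 30 °C total RNA the rule kept LOC1 and NOP16 of the 7, and without replicate 2 it kept LOC1, RPF1, RSA3 and SAS10. The part of these libraries in the IDRm and WT difference was not tested.

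The soluble libraries also differed within groups for the same genes. NOP16 stood at 121 and 43.6 CPM in WT soluble RNA at 42 °C, at 124 and 45.5 CPM in IDRm at 30 °C, and at 34.2 and 110 CPM in IDRm at 42 °C. The order of the replicates differed between these groups, and the ranges of 30 and 42 °C overlapped in both strains. In WT's own fractions the 7 were not called from 30 to 42 °C, with -0.58 to 0.22 in soluble RNA and -0.39 to 0.46 in the pellet (0 higher at an unadjusted p under 0.05 in each). Over the 407 genes with 20 CPM or more and a RefSeq annotation of ribosome assembly or the nucleolus, the median ratio of 42 to 30 °C in total RNA was 0.837 in WT and 0.563 in IDRm, and 27 reached a ratio of 2 in WT and 6 in IDRm. By that annotation 9 of the 43 (20.9%) belonged to the class, the 7 above with POP6 and MOD5, against 9.01% of the 4518 genes.

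**Figure D3:**
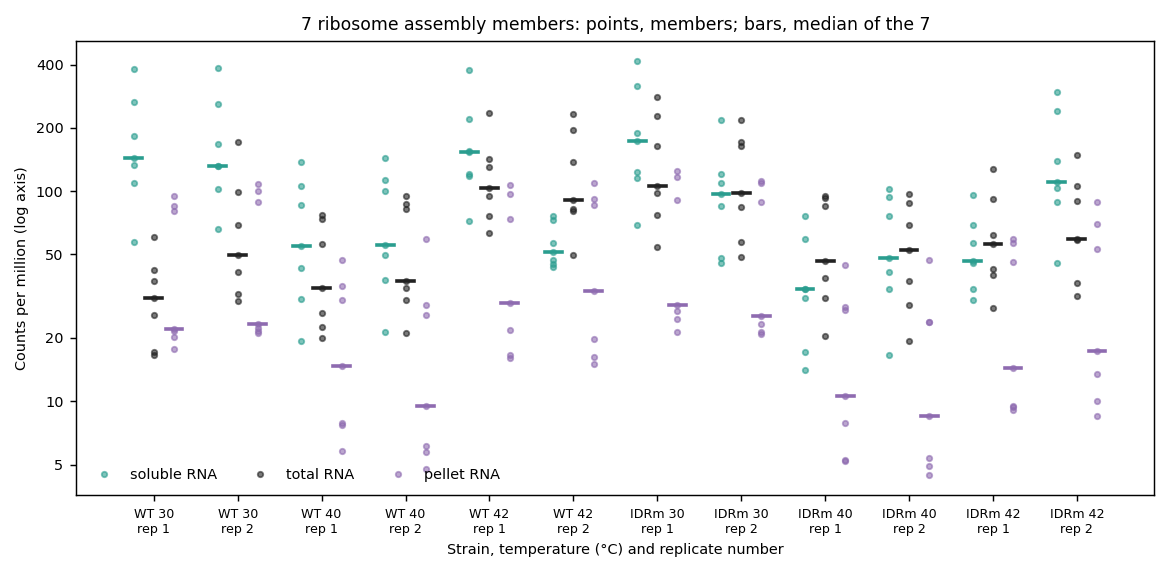
CPM (log axis) of the 7 ribosome assembly members in the soluble (green), total (black) and pellet (purple) library of each of the 12 harvests, with points for members and bars for the median of the 7. The bar of total RNA stands at 31.1 CPM in replicate 1 of WT at 30 °C, where that of soluble RNA stands at 144 CPM, and at 103 and 91.0 CPM in the WT harvests of 42 °C.

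Because the fractions were sequenced apart from total RNA, they show whether the rise at 42 °C was read in separate libraries. They come from the same harvests as the total libraries of the choice. In WT, 27 of the 43 rose in soluble RNA from 30 to 42 °C and 31 in the pellet, with 29% and 25.3% of all 6141 tested genes called higher. The groups did not overlap upwards for 23 of the 43 in soluble RNA and 35 in the pellet, against 22.5% and 41.6% of the 4555 genes. Both libraries of 42 °C lay below both of 30 °C for 5 members in soluble RNA (KRI1, RSA3, RRP7, NRK1 and SAS10). In the pellet they did so for 2 (LOC1 and RPF1). None of the 43 was called lower in either, where 30.1% and 22.7% of all genes were (edgeR and DESeq2 called 0 lower, and edgeR had 0 lower at an unadjusted p under 0.05). With size factors, and in a fit of the 2 groups alone, 1 was called lower in the pellet. In IDRm 29 rose in soluble RNA (background 27.8%) and 29 in the pellet (26.1%). The groups did not overlap upwards for 31 and 33 of the 43, against 28.7% and 36.2%. In each fraction 1 fell (background 35.3% and 28.3%), RPF1, by 0.56 and 1.67. In the pellet 4 fell with DESeq2, with its size factors or with a GC trend removed, and 7 in a fit of the 2 groups alone. The soluble fall of RPF1 was lost with a GC trend removed (-0.28), in a fit of the 2 groups alone (-0.39), and without replicate 1 of 30 °C (-0.26) or 42 °C (-0.32), and stood at -0.85 without replicate 2 of 42 °C. Without replicate 1 of WT soluble RNA at 42 °C, 24 rose and 5 fell in WT soluble RNA, and without replicate 2 29 rose and 0 fell. YSY6, TOS4, UBC12 and MOD5 lost their soluble call without replicate 1 (0.49, 0.22, 0.07 and 0.13). The scaling matters for the size of these values, since TMM factors raised fold changes in WT soluble RNA at 42 °C by 0.31 over library totals, and those of the WT pellet by 0.16 over DESeq2 size factors.

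At 40 °C the count of members called higher in the WT pellet lay above the share of all genes. The other counts in the fractions lay near or below their shares. In the WT pellet 17 rose and 8 fell (background 29.1% and 28.3%), and in WT soluble RNA 13 rose and 12 fell (30% and 32.5%). In IDRm 11 rose and 11 fell in soluble RNA (32.2% and 34%), and 11 rose and 10 fell in the pellet (30% each way). COA4 had the largest change of the 43 in the WT pellet at 40 °C. Its WT total level was 8.10 and 9.41 CPM at 30 °C, 12.2 and 12.1 CPM at 40 °C and 23.3 and 17.3 CPM at 42 °C. Its pellet level was 6.74 and 8.15 CPM at 30 °C, 46.9 and 50.5 CPM at 40 °C and 48.3 and 41.8 CPM at 42 °C. The soluble level was 19.1 and 13.6, then 7.51 and 7.26, then 11.7 and 14.0 CPM. The pellet had thus reached its 42 °C level at 40 °C (2.71 ± 0.20), where the soluble level was lowest (-0.92 ± 0.21). EFM3 and PAC1 moved in the same directions at 40 °C, by 1.55 ± 0.27 and 1.12 ± 0.18 in the pellet and by -0.97 ± 0.35 and -0.74 ± 0.20 in soluble RNA. EXO84, BUB3 and SIF2 fell in soluble RNA at 40 °C by 0.77 ± 0.14, 0.65 ± 0.13 and 0.44 ± 0.17, and were not called in the pellet.

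**Figure D4:**
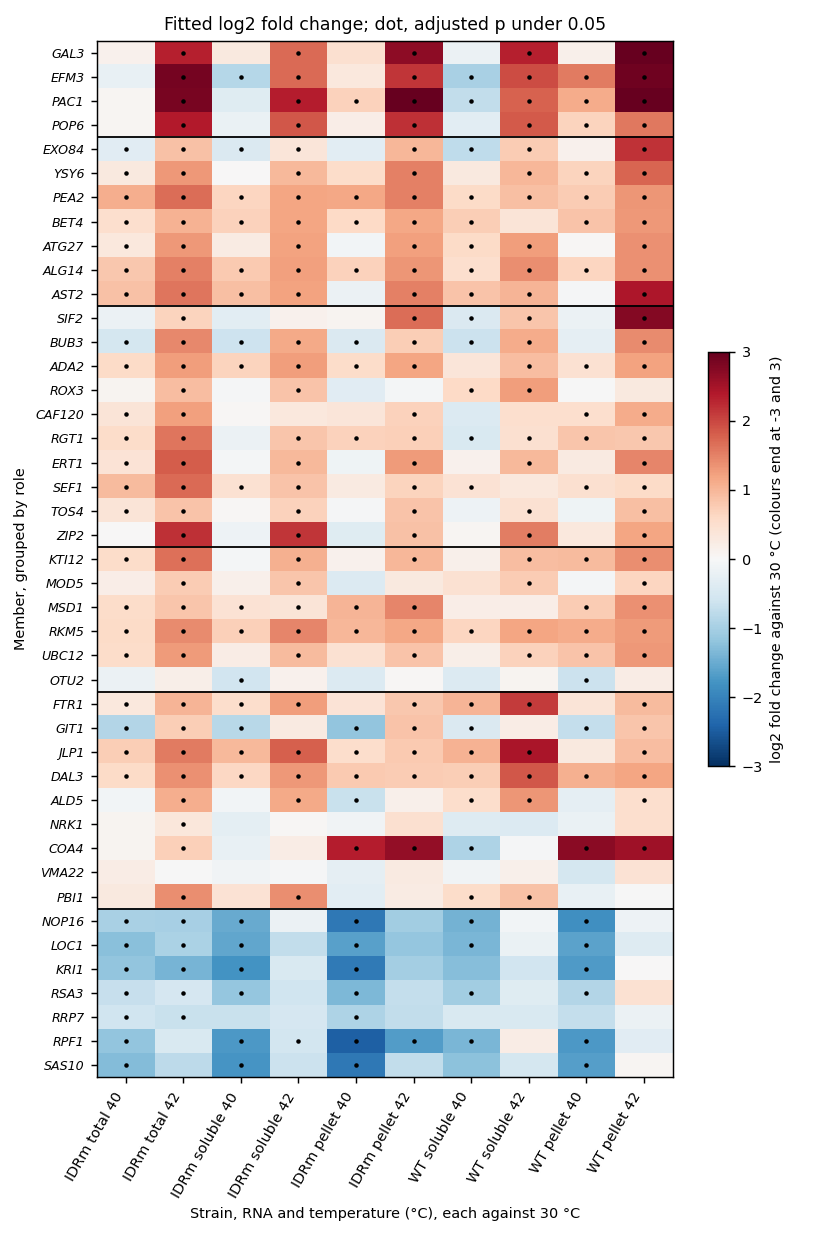
Fitted log2 fold change against 30 °C of the 43 members (rows, grouped by role) in IDRm total RNA and in the fractions of both strains at 40 and 42 °C, with red for higher, blue for lower, colours ending at -3 and 3, and a dot where the adjusted p is under 0.05. The 7 ribosome assembly members are the bottom rows, blue with dots in IDRm total RNA at 40 °C and without a dot in the WT columns of 42 °C, and the top rows are GAL3, EFM3, PAC1 and POP6, red in each column of 42 °C.

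The pellet and soluble levels of a gene were compared within each temperature. In WT at 42 °C, 18 of the 43 were higher in the pellet and 17 in soluble RNA (background 42.4% and 36.7%, 79.1% either way), and in IDRm 14 and 22 (41.3% and 37.4%, 78.7% either way). At 30 °C the counts were 13 and 20 in WT (33.4% and 34.8%) and 14 and 19 in IDRm (34.5% and 33.7%), with 68.2% either way in both. The highest values in WT at 42 °C were those of GAL3 (2.06 ± 0.24), SEF1 (1.97 ± 0.15), RGT1 (1.97 ± 0.12), PAC1 (1.96 ± 0.18) and CAF120 (1.90 ± 0.20). The lowest were LOC1 (-3.08 ± 0.44), NOP16 (-2.43 ± 0.55), RPF1 (-2.35 ± 0.20), VMA22 (-2.0 ± 0.26) and ROX3 (-1.98 ± 0.16). Without replicate 1 of WT soluble RNA at 42 °C, RRP7 (-0.10), SAS10 (-0.09), TOS4 (-0.18) and MOD5 (-0.01) lost their call, and ZIP2 and PBI1 lost theirs without replicate 2 (0.22 and 0.34).

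From 30 to 42 °C the balance shifted towards the pellet for 10 of the 43 in WT and towards soluble RNA for 6, against 23.6% and 14.7% of all genes (38.3% either way), and in IDRm for 6 and 6 (23.5% and 13.7%, 37.2% either way). In WT 7 moved each way with DESeq2 or its size factors and 6 each way in a fit of the 4 groups alone, while 17 moved towards the pellet and 5 towards soluble RNA without replicate 1 of WT soluble RNA at 42 °C. In IDRm 4 moved towards the pellet and 8 towards soluble RNA with DESeq2, and 10 towards soluble RNA without replicate 1 of the 42 °C pellet. The pellet and soluble libraries of a harvest come from the same cells and are treated as independent in these fits. The median shift was 0.33 in WT and -0.08 in IDRm, against 0.06 and 0.03 over all tested genes. In WT the counts called in each direction lay near the shares of all genes. In IDRm the count towards the pellet lay below its share and that towards soluble RNA near it. SIF2 was read in the WT pellet at 97.7 and 125 CPM at 30 °C, 92.0 and 106 CPM at 40 °C and 777 and 766 CPM at 42 °C, and in WT soluble RNA at 132 and 130, then 91.7 and 74.0, then 229 and 150 CPM. The pellet libraries of 42 °C lay far above all others, and the soluble ones above those of 30 °C by less. The shift was 1.93 ± 0.24 in WT (adjusted p = 4.49e-06) and 1.57 ± 0.24 in IDRm. COA4 shifted by 2.60 ± 0.29 in WT and 2.40 ± 0.28 in IDRm, PAC1 by 1.59 ± 0.26 and 0.93 ± 0.26, and MSD1 by 1.17 ± 0.20 and 1.07 ± 0.20. EXO84 and GIT1 (0.59) completed the 6 of IDRm, and the call of GIT1 was lost without any 1 of 6 libraries (0.49 to 0.64).

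EXO84 shifted by 1.42 ± 0.20 in WT and 0.64 ± 0.20 in IDRm, AST2 by 1.39 ± 0.22 and 0.30 ± 0.21, and GAL3 by 1.36 ± 0.38 and 0.97 ± 0.38. Neither AST2 nor GAL3 was called in IDRm. In the WT pellet AST2 stood at 17.4 and 17.2 CPM at 30 °C and at 87.7 and 103 CPM at 42 °C, and in the IDRm pellet at 16.1 and 17.4 and then 45.1 and 53.9 CPM. The 30 °C values of the strains lay close together, and at 42 °C both WT libraries were above both of IDRm. BET4 (0.91 ± 0.30), NRK1 (0.91 ± 0.31) and GIT1 (0.62 ± 0.22) completed the 10. These 3 calls were lost with DESeq2 (0.68, 0.68 and 0.38), with a GC trend removed (0.46, 0.47 and 0.30) and in a fit of the 4 groups alone (0.87, 0.87 and 0.58). They were also lost without any 1 of 4 or 5 libraries, among them replicate 2 of WT soluble RNA at 42 °C (0.49, 0.54 and 0.35), while without replicate 1 of that group the values were 1.57, 1.48 and 0.99. GAL3 lost its WT call in the fit of the 4 groups alone (1.33) and without replicate 2 of WT soluble RNA at 30 °C (1.11), PAC1 its IDRm call without replicate 2 of IDRm soluble RNA at 30 °C (0.78), and EXO84 its IDRm call without replicate 2 of the IDRm pellet at 30 °C (0.58) or at 42 °C (0.42) and without replicate 1 of IDRm soluble RNA at 42 °C (0.58).

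The 6 transcripts that moved towards soluble RNA in WT were JLP1 (-1.53 ± 0.22), FTR1 (-1.13 ± 0.27), ROX3 (-0.96 ± 0.23), PBI1 (-0.89 ± 0.27), ALD5 (-0.82 ± 0.19) and DAL3 (-0.69 ± 0.25). Of these, ROX3 belongs to Mediator and the others were described above under transport and metabolism. JLP1 was read in WT soluble RNA at 10.1 and 9.99 CPM at 30 °C and at 42.4 and 47.0 CPM at 42 °C, and in the WT pellet at 17.4 and 20.9 and then 35.5 and 39.5 CPM. Both fractions were higher at 42 °C, and soluble RNA went from the lower to the higher of the pair. FTR1 stood at 68.2 and 84.9 CPM in WT soluble RNA at 30 °C and at 223 and 300 CPM at 42 °C, and in the pellet at 146 and 156 and then 289 and 315 CPM. In IDRm JLP1, ROX3, PBI1 and ALD5 were also called lower (-1.02, -0.92, -1.17 and -0.99), together with ZIP2 (-1.25 ± 0.27) and RPF1 (-1.12 ± 0.29). DAL3 lost its WT call without any 1 of 6 libraries (-0.74 to -0.50), and PBI1 its WT call without replicate 1 of the pellet at 30 °C (-0.74) or of soluble RNA at 42 °C (-0.61).

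**Figure D5:**
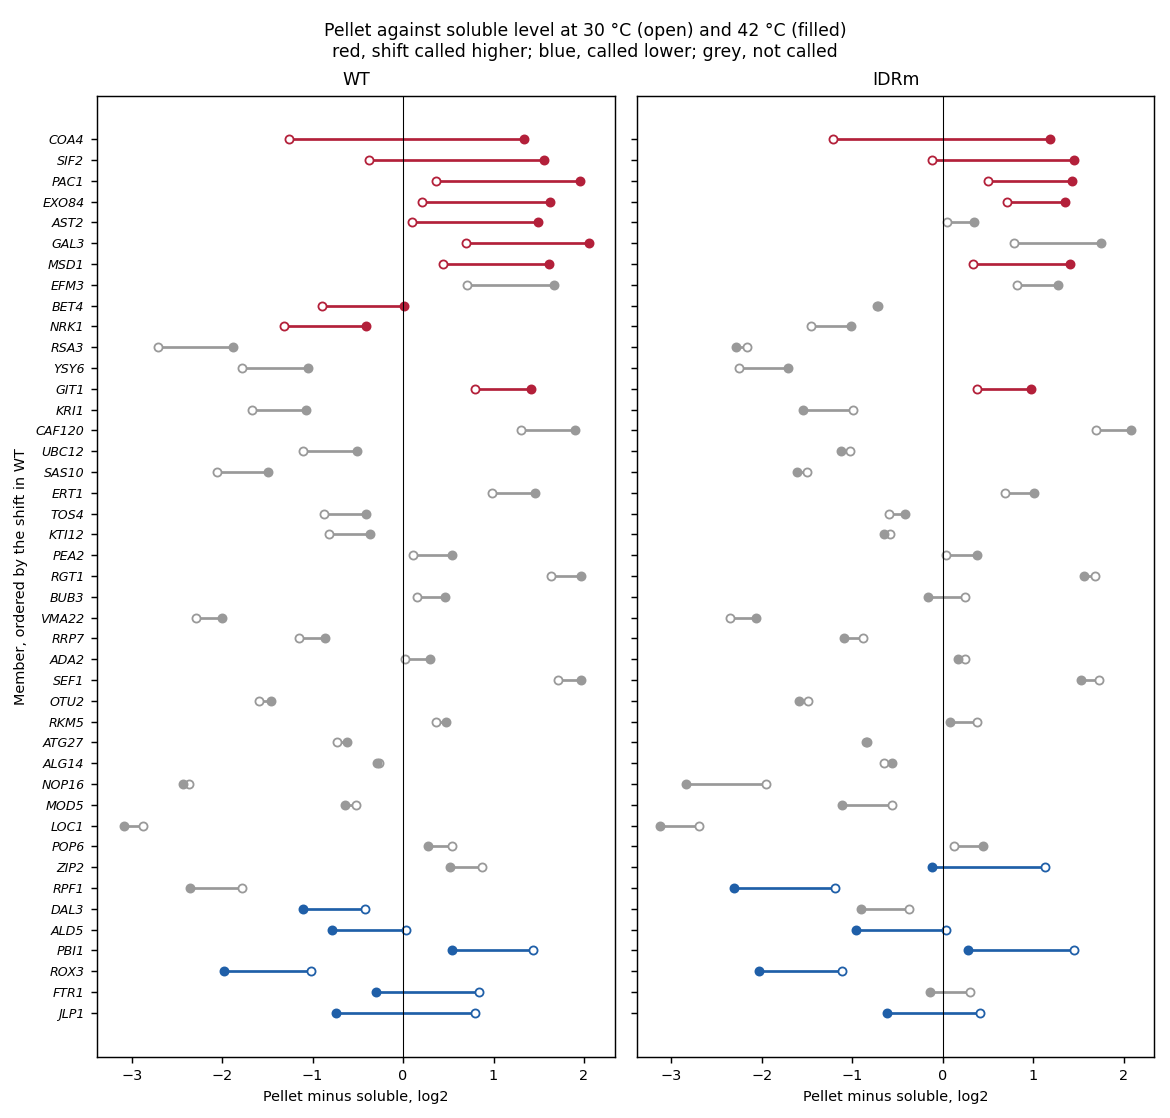
Pellet minus soluble level (log2) of each of the 43 members at 30 °C (open) and 42 °C (filled) in WT (left) and IDRm (right), in the order of the WT shift, with red for shifts called higher, blue for called lower and grey for not called. COA4 and SIF2 cross from the soluble to the pellet side in both strains, and JLP1 crosses the other way.

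The difference between the strains in this shift was called for 0 of the 43 (edgeR, 5 at an unadjusted p under 0.05, DESeq2 0) and for 7 of 6141 genes (0.114%). Without replicate 1 of WT soluble RNA at 42 °C it was called for 5 of the 43, all lower in IDRm. At 42 °C itself, 7 of the 43 were lower in the IDRm pellet than in the WT pellet and 0 higher (edgeR, 1 higher at an unadjusted p under 0.05, DESeq2 0), where 4.15% of all genes were called lower and 4.58% higher (8.73% either way). These were SIF2 (-1.06 ± 0.16), GAL3 (-1.01 ± 0.23), AST2 (-0.93 ± 0.13), EXO84 (-0.86 ± 0.14), RPF1 (-0.84 ± 0.22), DAL3 (-0.83 ± 0.17) and BUB3 (-0.66 ± 0.12). GAL3 stood at 245 and 302 CPM in the WT pellet at 42 °C and at 123 and 146 CPM in that of IDRm, and the groups did not overlap. In a fit of the 2 pellet groups alone 1 of the 43 was called, and without replicate 2 of the WT pellet at 42 °C 4 were. In soluble RNA at 42 °C, 7 were lower in IDRm (background 18.9%), among them DAL3, SIF2, RPF1, GAL3 and EXO84, and 4 were higher (13.8%, 32.7% either way), SEF1, BET4, PEA2 and ZIP2. Of these 11 calls 0 remained in a fit of the 2 groups alone (edgeR), and the count was 18 without replicate 1 of WT soluble RNA at 42 °C, 7 without its replicate 2, and 7 without replicate 1 of IDRm soluble RNA at 42 °C. The WT libraries of these comparisons share harvests with the libraries of the choice, which took genes high in WT at 42 °C. Values lower in IDRm were thus favoured by the choice, and the genes behind the background shares were not chosen in that way. The direction of these calls can therefore not be read as a strain difference.

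Several of the 43 lie beside genes of the heat response. A neighbour with a ratio of 42 to 30 °C of 4 or more in WT total RNA was found for 9 of the 43 (20.9%) and for 8.96% of the 4518 genes. EXO84 ends 368 bases before FES1 on the same strand, a nucleotide exchange factor of Hsp70 whose ratio was 19.4 at 42 °C and 37.1 at 40 °C. BUB3 ends 246 bases before STI1, a co-chaperone with ratios of 7.44 and 14.0, and COA4 ends 254 bases before CPR6, an Hsp90-bound prolyl isomerase with 5.55 and 11.0. These 3 of 43 (6.98%) lie next to a gene of the Hsf1 chaperone list, against 0.952% of the 4518 genes. PAC1 starts 452 bases from the start of YOR268C, on the opposite strand, with ratios of 32.9 and 18.3.

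EXO84 (chromosome II, 445062 to 447323, minus strand) and SIF2 (447709 to 449316, plus strand) are themselves neighbours, with start codons 385 bases apart and both among the 43. Their WT total levels were alike in each library, 88.4 and 93.3 CPM in replicate 1 of 30 °C and 390 and 376 CPM in replicate 2 of 42 °C, without correction for length. ALG14, RPF1, PEA2, MOD5 and RKM5 were the other members with such a neighbour (YBR071W, RTC3, SPI1, TPO4 and TIS11). None of the 43 overlaps another annotated protein-coding gene of R64, where 1.59% of the 4518 do. Neighbours and overlaps were searched among protein-coding genes only, so genes of other kinds were not checked. Whether reads were counted by strand is not given in the sources used here, so reads of a neighbouring transcript that reach into a member could not be told apart from its own. The median length was 1215 bases and the median GC content 39.5%, against 1374 bases and 39.5% over the 4518 genes.

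The other genes of the pathways to which members belong did not show 1 common course in IDRm, where 33.7% of all tested genes were called higher and 31% lower from 30 to 42 °C. Of 69 ribosome biogenesis genes tested in IDRm, among them LOC1, 69 fell at 40 °C and 69 fell at 42 °C, with medians of -3.05 and -1.48, and 64 rose from 40 to 42 °C. Of 67 genes of spindle poles, kinetochores and motors, the list of PAC1 and BUB3, 13 rose and 26 fell from 30 to 42 °C, and of 62 genes of vesicle coats, SNAREs and Rab GTPases, the list of EXO84, 17 rose and 13 fell. Of 74 chromatin genes with ADA2 on the list 11 rose and 44 fell, of 86 transcription factor genes with RGT1 45 rose and 15 fell, and of 42 G1/S genes with TOS4 10 rose and 18 fell. ADA2 (1.26) thus lay apart from its list's median of -0.51, and RGT1 (1.60) above a median of 0.54.

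Of 33 genes of meiosis and sporulation, the list of ZIP2, 24 rose in IDRm, and their median was 0.97 at 40 °C and 1.08 at 42 °C. ZIP2 itself was not called at 40 °C (0.02 ± 0.22). Of 32 iron and metal genes, with FTR1, 18 rose and 5 fell at 42 °C. Of 23 nitrogen and allantoin genes, with DAL3, 17 rose and 2 fell, and of 37 autophagy genes, with ATG27, 21 rose and 2 fell. Of 18 phosphate regulon genes, with GIT1, 3 rose and 13 fell at 42 °C with a median of -1.28, and of 47 polarity genes, with PEA2, 7 rose and 24 fell. The lists were described in IDRm because the WT total libraries chose the 43.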

How the data were processed

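RNA sequencing of 36 yeast libraries (18 groups of 2) was used as a deposited table of raw read counts per gene, whole numbers with no normalisation by the authors. The submitters' processing notes name bcl2fastq 2.19.1, STAR 2.5.2b and the build R64. How reads were assigned to genes, by strand or not, is not given in the sources used here, so counts of paralogs and neighbouring genes are uncertain. Per the labels' protocols, ribosomal RNA was depleted and each strain was grown in duplicate cultures that were split over the temperatures.

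Members were chosen by the rule in CPM (count over library total). Members, gene lists and tests were chosen with earlier results of these data known. Of 6697 genes 6014 matched the R64 annotation; the other 683 held 0.277% of counts and stayed in the fits.

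Genes were tested with the edgeR 4.0.16 quasi-likelihood test (limma 3.58.1, R 4.3.3) after filterByExpr (minimum count 10) and TMM scaling: 12 total libraries (6090 genes, 6 residual degrees of freedom, 3 contrasts) and 24 pellet and soluble libraries (6141 genes, 12 degrees of freedom, 17 contrasts), each with 1 term per group and Benjamini-Hochberg adjustment within a contrast. The shift is the change of pellet minus soluble between temperatures. WT total contrasts were not tested. The steps were tested on simulated counts. Alternatives were DESeq2 1.42.0, its size factors, no low-count filter, a GC trend removed, fits of the contrast's groups alone, a replicate block, other limits of the rule and leaving out each library. Values given in full follow a naming rule (largest WT ratios, extremes of IDRm change, shift and pellet minus soluble, and members of lists), which named 35 of the 43; the other 8 were added so that each member is described. Roles and the ribosome assembly group were set after values were seen.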

Additional observations from a re-analysis of the deposited data

Results flagged for a closer look

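For 7 transcripts, both WT total libraries of 42 °C lay above both of 30 °C, while both IDRm libraries of 42 °C lay below both of 30 °C. The log2 fold changes in IDRm were -1.39 for KRI1, -0.99 for NOP16, -0.95 for LOC1, -0.79 for SAS10, -0.66 for RRP7, -0.52 for RSA3 and -0.45 for RPF1. They are the 7 ribosome assembly members, and SAS10 and RPF1 were not called in IDRm. The WT direction rests on total libraries of 30 °C that disagreed with each other and with their own fractions. Without replicate 1 of WT 30 °C total RNA the rule kept LOC1 and NOP16 of the 7. In the soluble RNA and pellet of WT, none of the 7 was called from 30 to 42 °C. The difference between the strains was not tested, because the WT direction was fixed by the choice of the genes. Groups of 2 libraries were too small for a search for single outlying samples.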

How the results depend on the processing

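The counts of members called higher (heat steps) or in either direction (other contrasts) stayed within 1.5 times under DESeq2, its size factors, no low-count filter and a GC trend removed. In fits of the contrast's groups alone, 18 members rose in the IDRm pellet at 40 °C (11 in the full fit), 1 differed between strains in the pellet at 42 °C (7) and 0 in soluble RNA at 42 °C (11, edgeR). The number of genes by the rule was 74 with replicate 1 alone and 21 with a narrower window for the 40 °C ratio. With 60 genes at 10 CPM, 31 at 50 CPM and 31 from TMM-scaled CPM it was within 1.5 times. The number of genes does not show which members stayed. With TMM-scaled CPM 29 of the 43 members stayed, and AST2, KTI12, RGT1, ROX3, SEF1, RRP7 and SAS10 were among those left out. Only 20 of the 43 met the rule in each replicate taken alone. Leaving out each WT total library in turn, chosen after the data were seen, gave 40 to 61 genes.

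Leaving out 1 library of the groups compared, where the lone library is assumed to vary like the others, gave these ranges.
Members that rose in IDRm total RNA numbered 33 at 42 °C (34 in full), 11 to 16 at 40 °C (19, the lowest without replicate 2 of 30 °C) and 31 to 33 from 40 to 42 °C (33). Strain differences numbered 4 to 8 in the pellet, 7 to 18 in soluble RNA and 0 to 5 for the shift. The shift was called for 11 to 22 members in WT (16) and 10 to 16 in IDRm (12). BET4, pellet minus soluble in WT at 42 °C (0.01), turned to -0.41 without replicate 2 of the soluble group and was 0.67 without replicate 1. UBC12 (-0.50) turned to 0.12 without replicate 1 and was -0.89 without replicate 2. The cause was not tested.

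Among values of single members, 10 became called and 12 lost their call with the DESeq2 Wald test, with no change of sign of a called value. Same-numbered libraries of a strain and RNA at different temperatures had correlations of their deviations from -0.518 to 0.268 (median -0.009), so the numbers were not shown to pair them. Libraries of different RNA from the same harvest had -0.183 to 0.687 (median 0.196), and the tests of pellet minus soluble do not model this. With a replicate block, 33 members rose in IDRm total RNA at 42 °C and 15 at 40 °C, and the WT shift was called for 17. No count of members moved by over 1.5 times under the block, and 7 single calls were lost and 3 gained. The block was not fitted between strains, whose cultures differ. With 2 libraries a group and the shallowest at 4934241 counts, small changes could not be detected.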
